A study of Solanum lycopersicum with 8 samples.

Results

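The transcripts of wild type tomato fruit peel were set against those of all 3 anthocyanin mutants of the study, over all 8 of its arrays. The wild type was cv. Ailsa Craig, with 2 arrays. The mutants were Aft (Anthocyanin fruit), atv (atroviolacea) and the homozygous double mutant Aft/Aft atv/atv, with 2 arrays each and 6 in all. Every array measured 1 biological replicate of peel from untreated mature green fruit (Solanum lycopersicum). All plants were grown over winter in a heated greenhouse that did not go below 12 °C. By the labels, wild type and atv peel had no significant anthocyanin, Aft peel had a little, in spots, and double mutant peel was strongly pigmented. The labels name a cultivar only for the wild type. A difference in line background and the effect of the alleles therefore cannot be told apart in any value that sets the wild type against all mutants.

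Anthocyanins are made from phenylpropanoid precursors. Chalcone synthase makes the first flavonoid, and dihydroflavonol reductase (DFR) opens the branch to the pigments. Both alleles entered cultivated tomato by crosses with wild relatives, and cultivated green fruit normally makes little or no anthocyanin in the peel. At the mature green stage the fruit is full size and has not yet begun the ethylene-driven changes of ripening, which the MADS-box factor RIN (ripening inhibitor) controls.

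The deposited intensities were quantile-normalized over the 8 arrays, set to at least 16 and taken as log2, so that the lowest possible value is 4. Of 10209 probe sets, 171 controls were left out, and the 9493 with a value above the floor on at least 2 arrays were analysed. Correlations of replicate arrays were lowest for the atv mutant (r = 0.987) and highest for the wild type (r = 0.996). The atv arrays stood apart, with mean correlations of 0.928 and 0.935 with the wild type arrays, against 0.963 to 0.980 for the other mutant arrays. For 5 control transcripts, probe sets at the 3' end exceeded those at the 5' end by a mean log2 value of 0.54 and 0.61 in the wild type and 0.29 to 0.91 in the mutants, so the ranges overlapped. Of 11 listed markers of fruit epidermis and cuticle, 3 had a named probe set (LE16, TSW12 and ltpg1), and all 3 were above the floor on every array. Of 6 listed seed markers only MAN2 had a named probe set, which was at the floor on all 8 arrays. Of 6 listed trichome markers only MTS1 had one, and it did not exceed 4.02. Of 11 listed green plastid markers, 4 had a named probe set. Their summed intensity was 27866 to 28105 in the wild type and 23774 to 57035 in the mutants.

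A probe set was called separated when both wild type arrays lay above, or both below, all 6 mutant arrays. The gap is the log2 distance between the nearest wild type array and the nearest mutant array. Of the 9493 probe sets, 608 (6.4%) were separated with the mutants higher and 813 (8.56%) with the mutants lower, 1421 in all, or 15%. This rule reads the measured values, so the values of separated genes are given as a description and without a test. Most gaps were small, and 108 (1.14%) and 98 (1.03%) reached 0.5. The median gap was 0.16 for probe sets higher in the mutants and 0.10 for those lower in the mutants. A gap of at least 1, which is a doubling, was reached by 39 probe sets with the mutants higher (0.411%) and 23 with the mutants lower (0.242%). Gaps of at least 2 were reached by 13 (0.137%) and 4 (0.0421%). The split of the whole count depends on the scaling. With a median shift in place of quantiles 628 were higher and 620 lower, and on the deposited scale 314 and 587. The platform annotation gave an informative symbol to few of them, 130 genes of the 622 so named that were measured, with 60 higher and 70 lower in the mutants.

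**Figure D1:**
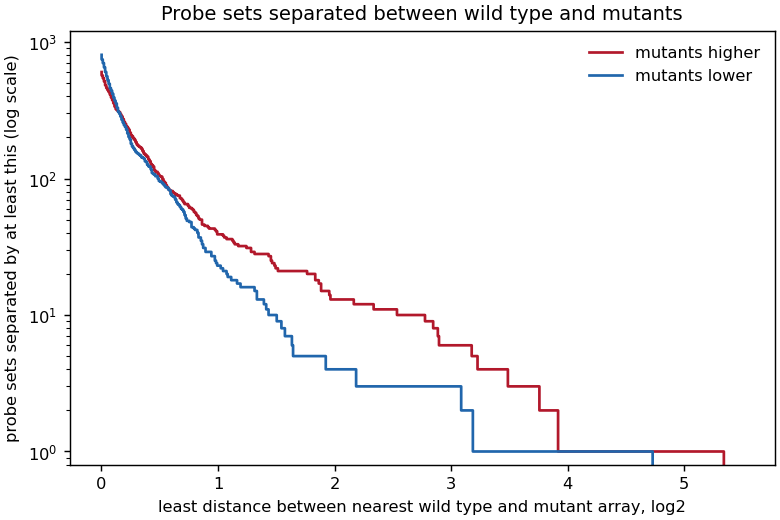
Number of probe sets (log scale) against the least log2 distance between the nearest wild type and mutant arrays. The red line shows probe sets higher in the mutants and the blue line those lower in the mutants. The blue line starts higher, at 813 against 608, and lies below the red line at a distance of 1, with 23 against 39.

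Of the 5 flavonoid and anthocyanin genes measured, DFR and the chalcone synthase CHS1 were separated with the mutants higher, and none with the mutants lower. Of all probe sets 6.4% were separated higher and 8.56% lower. DFR read the floor on both wild type arrays, 10.57 and 10.77 in the Aft mutant, 7.49 and 7.92 in the atv mutant, and 13.30 and 13.39 in the double mutant. Its gap of 3.49 was the largest of any named gene, and the lowest mutant array was at least 11.2-fold above the floor. CHS1 read 7.59 and 7.78 in the wild type, 10.62 and 10.69 in the Aft mutant, 13.35 and 13.41 in the atv mutant, and 13.06 and 13.14 in the double mutant. No mutant array came within 2.85 of the wild type for CHS1, a 7.21-fold distance, although atv peel is labelled as free of significant pigment. The order of the mutants differed between these genes. For DFR the atv mutant was nearest to the wild type, and for CHS1 the Aft mutant was. The second chalcone synthase, CHS2, did not follow. It read 13.95 and 13.82 in the wild type, and the mutant arrays ran from 13.28 to 14.10, on both sides of it. The MYB factor THM27 and DDB1, a light signalling gene also known from the high pigment mutants, overlapped as well.

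**Figure D2:**
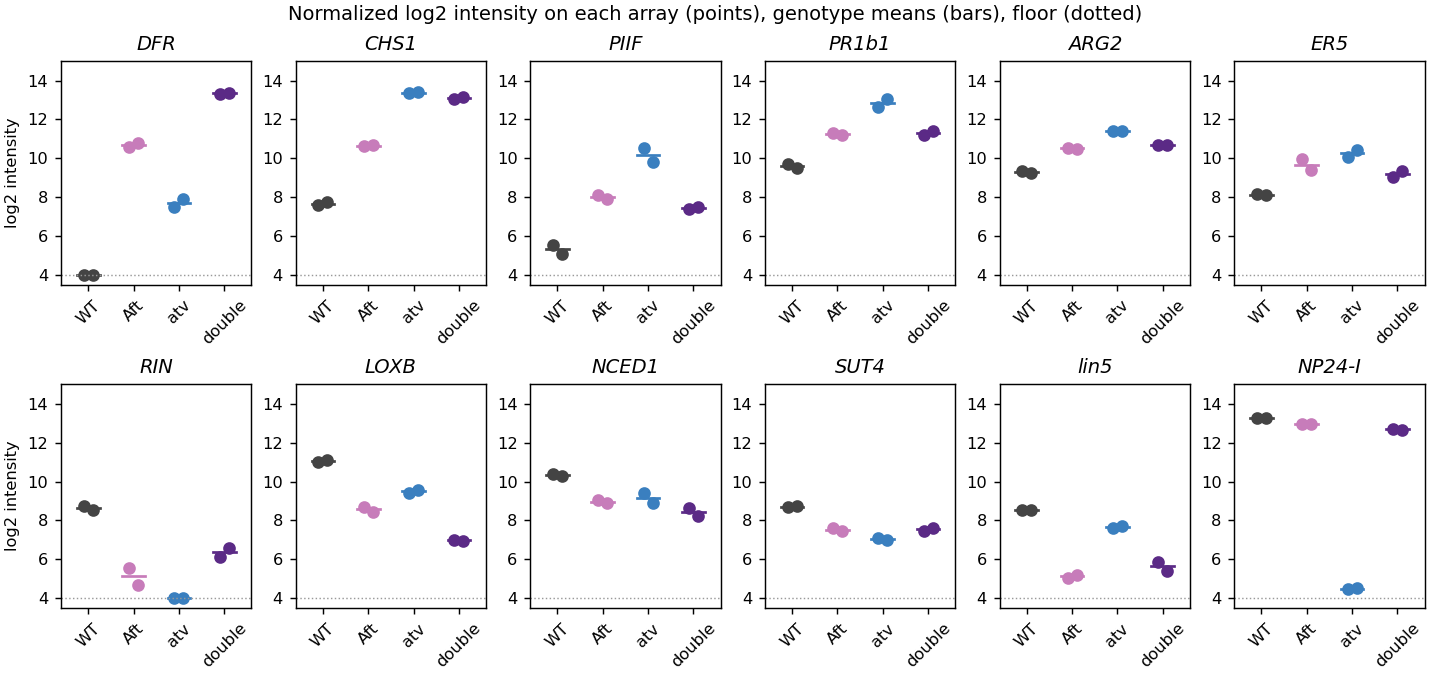
Normalized log2 intensity of 12 genes on each array. Points are arrays, short bars are genotype means and the dotted line is the floor of 4. The wild type points lie below all mutant points for DFR, CHS1, PIIF, PR1b1, ARG2 and ER5, and above them for RIN, LOXB, NCED1, SUT4, lin5 and NP24-I, where the atv mutant alone is far away.

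Of 40 genes of wounding and defence, 9 were separated with the mutants higher (22.5%, against 6.4% of all probe sets) and 4 with the mutants lower (10%, against 8.56%). The lists count genes, and among all 622 named genes 60 were separated higher and 70 lower. PIIF, the wound-inducible proteinase inhibitor, read 5.54 and 5.11 in the wild type, 8.13 and 7.91 in the Aft mutant, 10.53 and 9.80 in the atv mutant, and 7.38 and 7.48 in the double mutant. PR1b1, a pathogenesis-related protein gene, read 9.70 and 9.52 in the wild type, 11.31 and 11.19 in the Aft mutant, 12.66 and 13.04 in the atv mutant, and 11.20 and 11.41 in the double mutant. In both genes the atv mutant was the farthest from the wild type, and the other mutants lay near each other.

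Jasmonate, the hormone made from fatty acids after wounding, is made through lipoxygenase and allene oxide synthase. loxD, a lipoxygenase of that route, read 8.0 and 8.01 in the wild type, 8.80 and 8.46 in the Aft mutant, 10.44 and 10.86 in the atv mutant, and 9.85 and 9.97 in the double mutant. AOS, the allene oxide synthase, had a gap of 0.09, from 4.56 and 4.92 in the wild type to mutant arrays of 5.01 to 6.09. The next steps, named for contrast, were not separated. AOC, the allene oxide cyclase, was near the wild type in the Aft and double mutants, with differences of -0.05 and 0.01, and higher by 0.99 in the atv mutant, and OPR3, an oxophytodienoate reductase, differed by -0.21 in the Aft mutant, 0.01 in the atv mutant and -0.77 in the double mutant. Among signalling genes of defence, the mitogen-activated kinase MPK3 was separated by all 3 of its probe sets, with differences of 0.65, 0.94 and 0.60 in the Aft, atv and double mutants by the one with the highest level. PTI5, a transcription factor that binds the resistance kinase Pto, read 6.25 and 6.17 in the wild type and 6.75 to 8.0 in the mutants. The WRKY factors split, since WRKYIId-1 was higher in the mutants with a gap of 0.37 and WRKYIId-2 lower with a gap of -0.65.

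Arginase, which splits arginine into ornithine and urea and is induced by wounding, was higher in the mutants by all 3 probe sets of ARG2. The brightest read 9.35 and 9.27 in the wild type, 10.56 and 10.49 in the Aft mutant, 11.42 and 11.39 in the atv mutant, and 10.71 and 10.69 in the double mutant. ODC, the ornithine decarboxylase that takes ornithine on to polyamines, read 7.60 and 7.37 in the wild type, and the 6 mutant arrays ran from 8.22 to 8.90. For ODC the 3 mutants were alike in distance from the wild type, at 1.17, 1.07 and 0.98. ADC, the arginine decarboxylase that opens the other route to polyamines, was not separated, with 12.06 and 12.23 in the wild type and 11.53 to 12.86 in the mutants. The gene with the symbol adc1, named after its values were seen, was separated by 3 of its 4 probe sets. The brightest read 10.58 and 10.54 in the wild type and 10.95 to 11.69 in the mutants. CYP1, a drought-inducible cysteine protease also listed as tdi-65, was higher by 1.09, 1.1 and 0.78, and the phosphate-starvation gene TPSI1 by 1.09, 0.96 and 1.78.

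SBT2, a subtilase gene, was the other defence gene higher in all mutants, with a gap of 0.15. The 4 defence genes lower in all mutants had gaps from -0.26 to -0.65. NP24-I, an osmotin-like protein gene, was separated by only 0.28. It read 13.25 and 13.24 in the wild type, 12.96 and 12.95 in the Aft mutant, 12.70 and 12.67 in the double mutant, and 4.48 and 4.52 in the atv mutant. GluB, a glucanase, had the same shape, with differences of -0.36 in the Aft mutant, -6.98 in the atv mutant and -0.73 in the double mutant. Being separated therefore does not mean that the mutants moved by a like amount. PR-5 was lower with a gap of -0.38, from 6.79 and 6.54 in the wild type to mutant arrays between the floor and 6.16.

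Of 48 ripening and ethylene genes, 9 (18.8%, against 8.56% of all probe sets) were separated with the mutants lower and 3 (6.25%, against 6.4%) with the mutants higher. Among all 622 named genes, 70 were separated lower and 60 higher. RIN read 8.74 and 8.52 in the wild type, 5.58 and 4.71 in the Aft mutant, the floor on both arrays of the atv mutant, and 6.13 and 6.59 in the double mutant. Its gap of -1.92 was the largest of the named genes lower in the mutants, and the double mutant, not a single mutant, was the nearest to the wild type. TDR4, another MADS-box gene of fruit, was lower by 0.35 in the Aft mutant, 0.60 in the atv mutant and 0.155 in the double mutant. TAGL1, a further MADS-box gene, overlapped with the wild type. The ripening factor gene NOR was at or near the floor everywhere, at no more than 4.22.

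All 3 fruit lipoxygenases of the list were lower in every mutant. LOXB read 10.996 and 11.09 in the wild type, 8.69 and 8.44 in the Aft mutant, 9.40 and 9.58 in the atv mutant, and 7.01 and 6.95 in the double mutant. For LOXB the double mutant lay beyond both single mutants. loxC, which makes volatiles of ripe fruit, read 8.03 and 7.79 in the wild type and 5.40 to 7.29 in the mutants, with the atv mutant farthest. LOX1.1 had a gap of -0.13, since the atv mutant arrays at 12.46 and 12.75 lay just under the wild type at 12.89 and 12.90, while the double mutant read 9.84 and 10.31. The lipoxygenase of jasmonate synthesis, loxD, was on the other side, as given above.

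Genes of ethylene synthesis and signalling showed no common direction. ACS2, an ACC synthase of ripening, was lower near the floor, at 4.88 and 4.70 in the wild type and at most 4.44 in the mutants, whereas ACS6 was higher by 0.26, 0.60 and 0.76. No ACC oxidase gene was separated. ACO4 was lower in the Aft mutant by 2.42 and higher in the atv mutant by 1.89, and ACO6 was lower in the Aft and double mutants and higher in the atv mutant. Of the receptor genes ETR1 to ETR6, only ETR2 was separated, by a gap of -0.05. ER5, an ethylene-responsive gene of the late embryogenesis abundant type, read 8.17 and 8.12 in the wild type and 9.04 to 10.44 in the mutants, the largest gap of the list on the higher side. ERF3, an ethylene response factor, was higher with a gap of 0.25 by 1 of its 2 probe sets, and its other probe set had the opposite sign. ER1 behaved as NP24-I did, with differences of -0.22, -8.42 and -0.52, and EIL2, a signalling factor, as a smaller case of it (-0.10, -1.31 and -0.13).

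**Figure D3:**
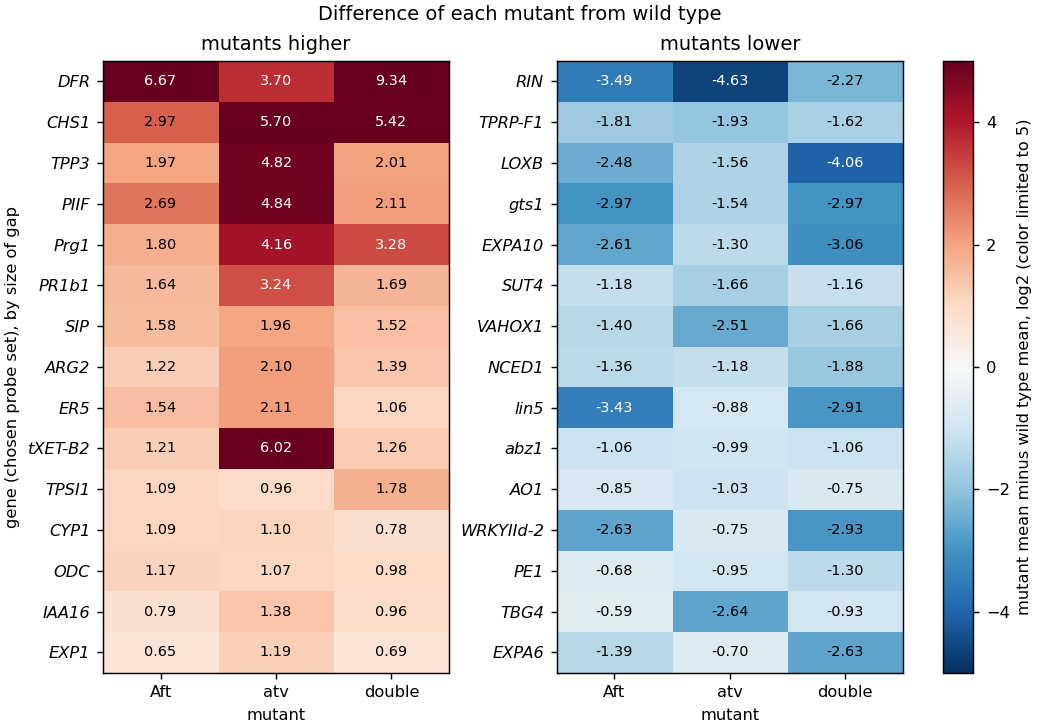
Log2 difference of each mutant mean from the wild type mean for the 15 named genes with the largest gaps in each direction, chosen for these values. Red is higher and blue is lower in the mutant, and the color scale stops at 5. ODC, TPRP-F1, AO1 and abz1 have like values in the 3 columns, while tXET-B2, TBG4 and lin5 do not.

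Cell wall genes were separated in both directions, 8 of 34 lower and 6 higher, where the shares of all probe sets were 8.56% and 6.4%. The pectin methylesterase PE1 read 14.04 and 13.88 in the wild type and 12.66 to 13.29 in the mutants, and PME2.1, another pectin methylesterase gene, read 12.63 and 12.55 against 11.53 to 12.02. Both were lowest in the double mutant. TBG4, a ripening beta-galactosidase, was lower by 0.59 in the Aft mutant, 2.64 in the atv mutant and 0.93 in the double mutant. The expansin genes EXPA10 and EXPA6 had gaps of -1.12 and -0.53, and the double mutant was farthest for both, although its EXPA10 arrays were far apart, at 5.65 and the floor. EXPA6 was separated by 1 of its 2 probe sets. The structural gene TPRP-F1, a proline-rich protein of young fruit, read 8.08 and 8.10 in the wild type and 6.09 to 6.64 in the mutants, with close differences of -1.81, -1.93 and -1.62. It is also 1 of the 2 vascular markers measured, with SUT2, and their summed intensity was 1542 to 1638 in the wild type and 882 to 1519 in the mutants, whose part in the result was not tested. EXPA3, an expansin gene, and TBG2, a beta-galactosidase gene, were separated as well, with gaps of -0.07 and -0.0025.

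The wall genes higher in all mutants included 3 of the 8 listed genes of the xyloglucan endotransglucosylase family, which cuts and rejoins xyloglucan chains. tXET-B2 read 6.44 and 6.13 in the wild type, 7.81 and 7.19 in the Aft mutant, 12.39 and 12.21 in the atv mutant, and 7.51 and 7.58 in the double mutant. XTH3 had the same form, with differences of 0.72, 5.32 and 0.85. XTH1 was less uneven, at 0.58, 0.83 and 1.09. The other 5 were not separated. In the atv mutant XTH16, XTH5, XTH7 and XTH6 differed by -1.93, -1.69, -0.41 and -0.20, and LeXTH9 by 2.81. The expansin EXP1 read 4.77 and 4.64 in the wild type and 5.30 to 5.97 in the mutants, close to the floor, and was no longer separated with a floor of 64. Cel3, an endoglucanase, and TBG5 had gaps of 0.11 and 0.13.

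SUT4, a sucrose transporter, was separated by both of its probe sets, and the brighter read 8.68 and 8.75 in the wild type, 7.59 and 7.47 in the Aft mutant, 7.11 and 6.98 in the atv mutant, and 7.48 and 7.63 in the double mutant. lin5, the cell wall invertase that splits sucrose outside fruit cells, read 8.54 and 8.56 in the wild type, 5.02 and 5.22 in the Aft mutant, 7.61 and 7.73 in the atv mutant, and 5.86 and 5.42 in the double mutant. The arrays with the Aft allele were thus the lower ones for lin5, while SUT4 was lowest in the atv mutant. The hexokinase hxk1 was lower by 0.47, 0.36 and 0.51. Of 20 sugar and starch genes, 3 were separated lower and 2 higher, beside 8.56% and 6.4% of all probe sets. Those higher were AGPL3, a subunit of ADP-glucose pyrophosphorylase in starch synthesis, with a gap of 0.18, and TPP3, which entered the list by its symbol alone. TPP3 read the floor and 4.09 in the wild type, 5.97 and 6.07 in the Aft mutant, 8.97 and 8.75 in the atv mutant, and 5.93 and 6.18 in the double mutant, and with a floor of 64 it was no longer separated.

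Abscisic acid is cut from carotenoids by NCED1. NCED1 was the 1 gene of 15 in the carotenoid and abscisic acid list separated with the mutants lower (6.67%, against 8.56% of all probe sets). It read 10.38 and 10.27 in the wild type, 9.03 and 8.90 in the Aft mutant, 9.41 and 8.88 in the atv mutant, and 8.65 and 8.25 in the double mutant. The 3 aldehyde oxidase genes measured, picked out after their values were seen, were also all separated with the mutants lower. AO1 read 12.16 and 12.23 in the wild type and 11.08 to 11.50 in the mutants, TAO3 had a gap of -0.08 and TAO2 one of -0.02. In Arabidopsis an aldehyde oxidase makes the last step to abscisic acid. FLACCA, which activates these enzymes in tomato, overlapped, at 8.57 and 8.67 in the wild type and 8.12 to 8.96 in the mutants.

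The 3 carotenoid genes CRTL-E-1, PSY2 and CCD1A were separated with the mutants higher, each with the atv mutant farthest. They made up 20% of the list, against 6.4% of all probe sets. CRTL-E-1, the lycopene epsilon-cyclase, read 7.77 and 8.01 in the wild type and was higher by 0.41, 2.52 and 1.0 in the Aft, atv and double mutants. PSY2, a phytoene synthase, was higher by 0.30, 2.33 and 0.61, and CCD1A, a carotenoid cleavage dioxygenase, by 0.45, 1.22 and 0.88. Psy1, the phytoene synthase of ripening, was separated by 1 of its 3 probe sets, at 5.99 and 5.93 in the wild type and 6.10 to 6.89 in the mutants. Its brightest probe set was lower in the Aft mutant by 0.67 and higher in the atv mutant.

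The other lists were short. Of all probe sets 6.4% were separated with the mutants higher and 8.56% with the mutants lower. Of 8 cold and drought genes, 3 (37.5%) were higher in all mutants, namely DREB1, LE16 and PRO2. DREB1, a factor of the DREB family, had differences of 1.1, 1.61 and 0.66. The lipid transfer protein gene LE16, also a marker of epidermis, had a gap of only 0.04. PRO2, an enzyme of proline synthesis, had a gap of 0.12. The summed intensity of the 3 epidermis markers was 21019 to 21389 in the wild type and 22143 to 32108 in the mutants, and its part in the result was not tested. Fewer cells of a type and less RNA per cell cannot be told apart in peel. Of 8 auxin genes, IAA7 was higher and IAA27 lower, and IAA16, an Aux/IAA repressor outside the list, was higher with a gap of 0.57. The gibberellin oxidase 20ox-3 read 6.60 and 6.43 in the wild type, 6.28 and 6.01 in the Aft mutant, 4.25 and 4.17 in the atv mutant, and 4.46 and 4.52 in the double mutant, so the carriers of atv were near the floor. Of 9 light signalling genes, the blue light receptor CRY2 and the light signalling repressor COP1 were lower with gaps of -0.14 and -0.04, and the photoreceptor PHYA was higher with a gap of 0.01. SODCC.1, a superoxide dismutase, was lower by 0.03 at the gap, and none of the phenylpropanoid, photosynthesis, heat shock or reference genes was separated. Among the named genes with the largest gaps were further VAHOX1, a homeobox gene, and abz1, lower by 1.06, 0.99 and 1.06 in the 3 mutants, and on the higher side Prg1 and SIP. The gts1 gene was lower by both of its probe sets, and the brighter read the floor in the Aft and double mutants.

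**Figure D4:**
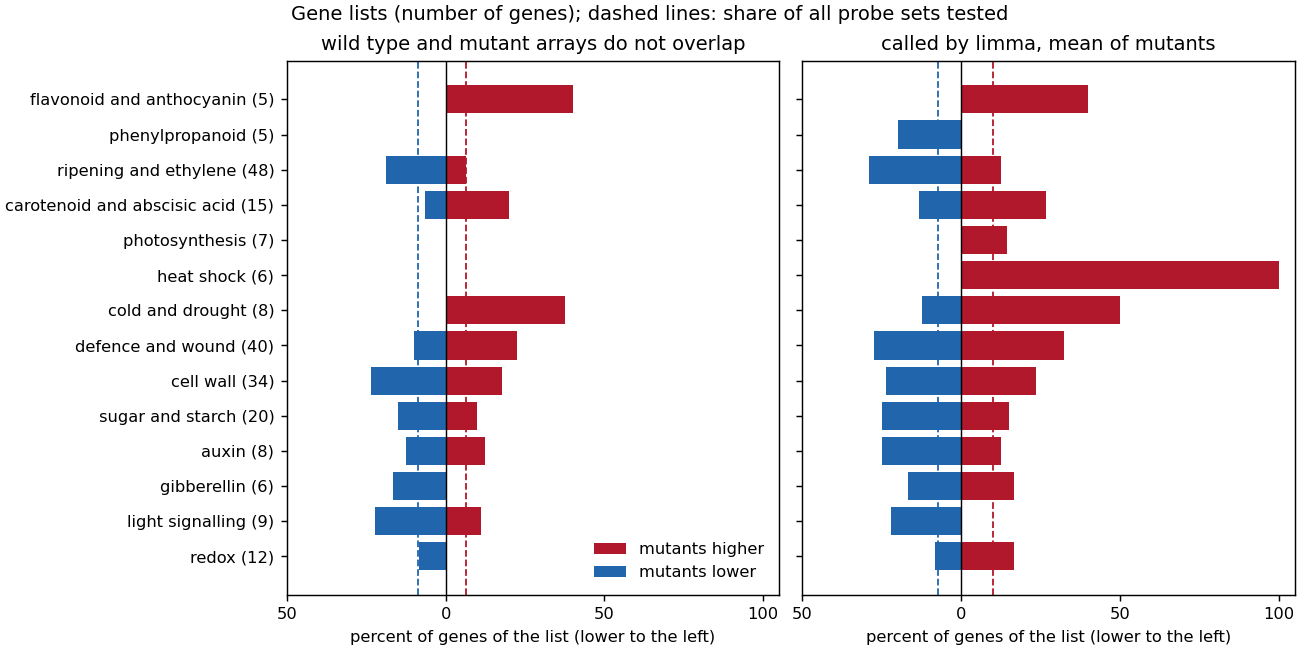
Percent of the genes of each list that were separated (left) or called by limma (right), with the number of genes in brackets. Red bars to the right are genes higher and blue bars to the left genes lower in the mutants, and dashed lines give the share of all 9493 probe sets. Heat shock genes have no separated member and all 6 called higher.

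The comparison was also tested over all 9493 probe sets, whether separated or not. limma was fitted to the 4 genotype means on all 8 arrays, and the mean of the 3 mutants was set against the wild type with p values adjusted by Benjamini and Hochberg. At an adjusted p under 0.05, 945 probe sets (9.95%) were higher and 706 (7.44%) lower in the mutants, 1651 in all. With 1 array fewer the number moved by over 1.5 times in 3 cases, to 504 when wild type 1 was dropped, 555 for wild type 2 and 2534 for atv mutant 1. On the deposited scale 692 were called. When the 6 mutant arrays were treated as 1 group, so that the differences among the mutants entered the spread, only 24 were called, 13 higher and 11 lower. Separation and this test picked different probe sets. Of the called ones 846 were separated and 805 were not, and 575 separated ones were not called. In 1145 of the 1651 called probe sets, 1 mutant held over 50% of the sum of the 3 absolute differences, and in 920 of these it was the atv mutant.

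Heat shock genes were of that kind. All 6 rose in the mean contrast and none was separated. HSP17.4, a small heat shock protein gene, was higher by 3.13 on average (SE 0.32, limma, adjusted p = 0.00165). It read the floor on both wild type arrays, the floor and 4.79 in the Aft mutant, 12.24 and 12.79 in the atv mutant, and the floor and 4.96 in the double mutant. Without the atv arrays none of the 6 was called, a setting added after the data were seen. With all arrays, the median of the list was 2.06, against -0.01 over all probe sets.

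For the other lists the counts by limma were as follows. The shares of all probe sets called were 9.95% higher and 7.44% lower. Of the 5 flavonoid genes DFR and CHS1 rose, with mean differences of 6.57 and 4.70, and 3 did not pass, with CHS2 at -0.20 (adjusted p = 0.173). Of the ripening and ethylene genes 6 rose, 14 fell and 28 did not pass, with a median of -0.18. Those that fell included RIN, by 3.46, and LOXB, by 2.70. With the 6 mutant arrays as 1 group none of DFR, CHS1, RIN and LOXB was called by limma, with adjusted p of 0.227, 0.126, 0.169 and 0.305. Of all genes in the lists that fit called 1, the cell wall gene TPRP-F1, which fell. Of the defence genes 13 rose, 11 fell and 16 did not pass, and of the cell wall genes 8 rose, 8 fell and 18 did not pass. The medians of both lists were near 0, at -0.002 and 0.03. Of the sugar and starch genes 3 rose and 5 fell, of the carotenoid and abscisic acid genes 4 rose and 2 fell, and of the cold and drought genes 4 rose and 1 fell. Without wild type 1 or wild type 2, 7 ripening genes fell and 3 rose in either case. Defence genes that rose numbered 8 and 6, those that fell 6 and 7, and 5 cell wall genes fell in either case. Called genes that were not separated, picked out after their values were seen, included CEVI57 (-3.95, 0.66 and -4.51 in the Aft, atv and double mutants), TLRP (2.11, -0.32 and 2.33) and sbt4a (3.84, -1.65 and 3.02), in which the atv mutant stood on the other side of the wild type.

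Each mutant was then set against the wild type on its own in the same fit. Adjusted p was under 0.05 in all 3 comparisons for 121 probe sets higher in every mutant (1.27%) and for 95 lower in every mutant (1.0%). In a further 136 (1.43%) all 3 comparisons passed, but the mutants differed in direction. These comparisons share the wild type arrays, so a common direction is no independent support. All 216 probe sets with 1 direction were also separated. Leaving out wild type 1 gave 52 higher and 32 lower, wild type 2 gave 47 and 40, and either double mutant array gave 74 higher.

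How far the mutants differed from one another was tested by a moderated F test of the 3 mutant means, which holds no wild type value. Over all probe sets 4777 (50.3%) differed among the mutants. Of the separated probe sets higher in the mutants 58.7% did so, and of those lower 39.1%. The rule reads the mutant values too, so these shares are given as a description. They lay on either side of the share of all probe sets. The atv mutant was the farthest from the wild type in 58.7% of the separated probe sets higher in the mutants and in 53.9% of those lower, against 56.2% of all probe sets. The Aft mutant was the nearest in 57.7% and 56.9%, against 55.3%. The order of the mutants among separated probe sets was thus close to that of all transcripts. The double mutant lay between the single mutants in 49.3% of those higher, in 40.8% of those lower and in 40.2% of all. In 29.3% and 26.4% the nearest mutant reached at least 50% of the difference of the farthest, against 13.2% of all probe sets, a share that the rule favours. ODC, SIP, TPRP-F1 and abz1 were of that kind, and so was AO1.

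The separated probe sets also differed in level. The median wild type level was 8.72 for those higher in the mutants, 10.43 for those lower in the mutants and 9.55 for all 9493. A level at the floor leaves no room for a lower value. The wild type was at the floor in 17 of the 608 probe sets higher in the mutants. The part of the floor in this order was not tested. In 7 probe sets the wild type was at the floor on both arrays while all mutant arrays were above 64, or 6 on the log2 scale, and DFR was 1 of them. In 2 the reverse was seen, with all 6 mutant arrays at the floor and both wild type arrays above 64.

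The widest gaps of all belonged to probe sets without a gene symbol in the annotation used. The widest with the mutants higher read the floor on both wild type arrays, 10.85 and 10.56 in the Aft mutant, 9.51 and 9.34 in the atv mutant, and 9.78 and 9.65 in the double mutant, a gap of 5.34. The next on that side had a gap of 3.92, and its probe set name shares a stem with the widest, so they may not read separate genes. With the mutants lower, the widest read 8.92 and 8.74 in the wild type and the floor on all 6 mutant arrays, and another read 7.35 and 7.09 in the wild type and likewise the floor in every mutant. In the widest probe set with the mutants higher the Aft mutant was the highest, unlike DFR, for which the double mutant was.

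At the edge of the rule, PLDa3, AN34 and pip1 were just inside, each lower in the mutants with a gap below 0.002. The translation factor gene eIF4E1, LTC and CS2 were just outside, overlapping by 0.0029, 0.0042 and 0.0075. The pip1 gene shows how little a gap alone says. It read 7.25 and 7.56 in the wild type and 7.25 and 7.19 in the Aft mutant, but 4.64 and the floor in the double mutant.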

How the data were processed

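Affymetrix Tomato Genome Arrays measured biotin-labelled peel RNA, 1 array per sample, grouped by sample title. The authors deposited 1 intensity per probe set and array on a linear scale, and GCRMA is named, per the submitters' processing notes. No source used here gives the scaling, and the deposited array medians ran from 517 to 762. Arrays were quantile-normalized, set to at least 16 and taken as log2 (limma 3.58.1, R 4.3.3, Python 3.11.15). The number of arrays limits the precision. The platform annotation gave 1 symbol to 909 of 10209 probe sets and none to 9300, and 885 matched the RefSeq gene table (SLM_r2.1) by identifier. For genes with several probe sets, the one with the highest mean level was counted. The limma model had 4 residual and 2.28 prior degrees of freedom. It was also run on simulated arrays, in which the changed probe sets changed alike in all 3 mutants. In the data 50.3% of probe sets differed among the mutants, so that run does not cover such differences.

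Members and lists were chosen with earlier results of these data known. Named are the 15 separated genes with the largest gaps in each direction, separated list members, CHS1, CHS2, DFR and RIN, and those nearest a gap of 0. Others were named for contrast after their values were seen. Alternatives were another scale, floor, filter and model, a replicate block, and each array left out. Deviations of same-numbered arrays from their genotype means correlated with r of -0.07 to 0.35. With 2 arrays per genotype these values cannot show whether the numbers pair the samples.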

Additional observations from a re-analysis of the deposited data

How the results depend on the processing

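On the deposited scale 368 probe sets were called higher and 324 lower in the mean of the mutants, 314 were separated higher, 56 and 46 were called in all 3 mutants, and 2558 differed among the mutants. Of the separated probe sets 268 higher and 435 lower were still separated on that scale. With a median shift in place of quantiles, 50.3% of the separated probe sets were higher, against 42.8% as reported and 34.9% on the deposited scale, and SODCC.1 turned from -0.11 to 0.0104 (limma, adjusted p = 0.976). With the mutants as 1 group 13 and 11 were called. With a gap of at least 0.5, 108 and 98 were separated, and with 1, 39 and 23. Without both atv arrays, added after the data were seen, 1611 and 1491 were separated, 267 and 234 called in both other mutants, and 1142 differed between these. With fewer arrays the separation rule has fewer conditions, so its counts can only stay or rise. A call in both other mutants is likewise a looser demand than one in all 3. Leaving out 1 array in turn gave 290 to 1229 called higher and 214 to 1305 lower, 646 to 1096 and 856 to 1401 separated, 47 to 126 and 32 to 106 called in all 3, and 3532 to 4793 different among the mutants. The replicate block gave 955 higher and 744 lower, with EXPA3 and SBT2 no longer called. Of 71 named genes, not all of which were called as reported, 61 lost their call with the mutants as 1 group and 13 on the deposited scale. Some also lost it when either wild type array was left out. The causes of the other changes were not tested. Groups of 2 arrays allow no test for single outlying arrays.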
